A study of Mus musculus with 10 samples.

Results

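Imprinted genes were examined in mouse oocytes lacking the H3K4 methyltransferase SETD1B. The set was a list of 35 genes known to be imprinted, 29 whose imprinting control region is methylated in the oocyte and 6, in 2 clusters, whose control region is methylated in sperm. Each gene was represented by the 5 kb windows that the deposited table names for it, and by the one of these with the highest mean over 6 H3K4me3 libraries. At least 1 window was found for 30 of the 35 genes (24 oocyte-methylated and 6 sperm-methylated), and 343 of 544879 windows carried the name of one of them. The other 5 genes, *Nnat*, *Kcnq1ot1*, *Tssc4*, *Nap1l5* and *Zrsr1*, overlap or adjoin another gene whose name their windows bear, and they enter only through the window that holds their annotated start.

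H3K4me3 was measured by ULI-nChIP-seq, a native ChIP-seq for small numbers of cells, in pools of about 200 fully grown germinal vesicle (GV) oocytes from 21-day-old C57BL6 females. The cKO oocytes were *Setd1b* floxed/floxed and Gdf9-Cre positive (replicates 1, 3 and 4), and the WT oocytes were floxed/floxed and Gdf9-Cre negative by their labels (replicates 1, 2 and 4). The study's methods also count Cre-positive females with 1 intact *Setd1b* allele as WT, and whether any pool held them is not given in the sources used here. *Gdf9*-Cre recombines in growing oocytes, and each pool may hold oocytes of several females. Values are normalized RPKM, for which each library was shifted and scaled by the authors so that its 40th and 99th percentiles (1.23 and 6.77) are the same in all 6 libraries. A window without a read therefore has a value of its own in each library, from −1.02 to 0.81, and differences between low windows depend on it, which is why reads are given beside them. The libraries held 10856015 to 32775874 reads in windows. Replicate 1 of each genotype stood apart: the window at the 99th percentile held 13.5 (cKO) and 14.25 (WT) times the reads of that at the 40th. This ratio was 3.471 and 3.875 in cKO replicates 3 and 4, and 5.385 and 6.968 in WT replicates 2 and 4. Among these 4 libraries it was thus lower in cKO, and its part in the differences between low windows was not tested. At the window of the *Setd1b* start, which need not lie in the deleted part, the 3 cKO libraries held 3.93 to 4.66 and the 3 WT libraries 6.12 to 7.65 normalized RPKM.

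Imprinted genes are expressed from one parental copy because their control regions acquire DNA methylation in only one germline. In oocytes this methylation is laid down during growth by DNMT3A and DNMT3L across transcribed regions, and DNMT3L binds the H3 tail only when lysine 4 is unmethylated, so that H3K4me3 and DNA methylation tend to exclude each other. Control regions methylated in the oocyte are often promoters inside another transcript, such as that of the antisense RNA *Kcnq1ot1* within *Kcnq1*, whereas those methylated in sperm, near *H19* and between *Dlk1* and *Meg3*, lie between genes and stay unmethylated in the oocyte.

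The promoters printed here show what lies at such sites. Those of *Mest*, *Plagl1*, *Nap1l5* and *Kcnq1ot1* are in windows taken below for oocyte-methylated control regions, and that of *Meg3* is in a cluster methylated in sperm. They are RefSeq promoters of GRCm38.p6, 300 bases around the start and mostly before it, 5′ to 3′ on the gene's strand: *Mest* at chr6:30737800-30738099 (+), *Plagl1* at chr10:13090582-13090881 (+), *Nap1l5* at chr6:58907077-58907376 (−), *Kcnq1ot1* at chr7:143296498-143296797 (−) and *Meg3* at chr12:109540746-109541045 (+). Capitals mark TGCCGC or its reverse complement GCGGCA, the hexamer read by ZFP57, a zinc finger protein that keeps methylation at imprinted regions after fertilization.
Mest: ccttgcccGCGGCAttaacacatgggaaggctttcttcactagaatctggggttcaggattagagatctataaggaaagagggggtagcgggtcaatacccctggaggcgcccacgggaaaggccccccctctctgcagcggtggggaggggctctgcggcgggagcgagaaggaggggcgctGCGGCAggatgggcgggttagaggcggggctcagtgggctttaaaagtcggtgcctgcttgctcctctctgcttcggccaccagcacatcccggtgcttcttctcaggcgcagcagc
Plagl1: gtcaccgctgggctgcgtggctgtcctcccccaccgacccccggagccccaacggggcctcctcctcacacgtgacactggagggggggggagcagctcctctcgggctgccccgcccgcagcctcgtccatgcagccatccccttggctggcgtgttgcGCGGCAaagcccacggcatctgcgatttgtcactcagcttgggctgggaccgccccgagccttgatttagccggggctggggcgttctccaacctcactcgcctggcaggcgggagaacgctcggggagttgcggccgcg
Nap1l5: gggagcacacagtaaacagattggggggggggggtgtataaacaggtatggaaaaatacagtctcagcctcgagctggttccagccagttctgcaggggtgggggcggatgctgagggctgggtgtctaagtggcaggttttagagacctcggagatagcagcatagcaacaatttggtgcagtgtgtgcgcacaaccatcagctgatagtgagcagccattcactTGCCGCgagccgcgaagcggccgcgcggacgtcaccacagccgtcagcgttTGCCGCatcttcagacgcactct
Kcnq1ot1: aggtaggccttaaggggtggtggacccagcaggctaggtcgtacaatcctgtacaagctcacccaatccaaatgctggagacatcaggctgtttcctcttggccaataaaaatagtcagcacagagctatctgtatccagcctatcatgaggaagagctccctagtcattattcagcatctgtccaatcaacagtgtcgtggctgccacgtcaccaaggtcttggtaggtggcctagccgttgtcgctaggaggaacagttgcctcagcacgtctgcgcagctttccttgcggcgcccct
Meg3: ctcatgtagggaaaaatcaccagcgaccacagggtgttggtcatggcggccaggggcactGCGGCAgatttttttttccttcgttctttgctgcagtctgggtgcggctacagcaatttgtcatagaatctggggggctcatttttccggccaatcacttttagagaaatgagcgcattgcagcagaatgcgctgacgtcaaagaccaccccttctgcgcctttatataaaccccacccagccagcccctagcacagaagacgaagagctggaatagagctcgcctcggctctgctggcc
RefSeq promoters were found for 28 of the 35 genes, 45 promoters in all, and were missing for *Rtl1*, *Impact*, *Sgce*, *Kcnq1*, *Cdkn1c*, *Peg10* and *H19*. The hexamer, on either strand, was in 10 of these 45 and in 11.6% of all 32851 promoters of the same length. Of these 10, 2 are nearly the same *Mest* promoter, and the 45 held a median of 13 CpGs against 7 over all promoters, so that the shares are not matched for CpG content. *Mest* and *Nap1l5* held it 2 times each, *Plagl1* and *Meg3* 1 time each, and *Kcnq1ot1* not within these 300 bases. These promoters held 17, 26, 17, 9 and 13 CpGs, in the order printed.

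In WT oocytes, nearly all control regions methylated in the oocyte had less H3K4me3 than the median window, although most are rich in CpGs, and the regions of the sperm-methylated clusters stood well above it. The oocyte-methylated regions were taken as the window with most CpGs among the windows that hold a transcript start of the gene, without the gene start where the control region is at an internal promoter, which gave 15 distinct windows for 17 genes. Their WT means were below the median of all windows (1.46 normalized RPKM) in 14 of the 15. This rule and the CpG limit used below were chosen after values of these windows had been seen.

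*Plagl1*, which encodes a zinc finger transcription factor, had the lowest of these windows (143 CpGs), with 1.02, 0.742 and 0.450 normalized RPKM in WT replicates 1, 2 and 4, from 4, 8 and 5 reads. At the window of *Mest*, a hydrolase gene, the 3 WT libraries held 1.12, 0.742 and 0.749 normalized RPKM over 185 CpGs. *Airn*, the non-coding RNA antisense to the IGF2 receptor gene, had 0.967, 0.840 and 0.839 normalized RPKM over 119 CpGs. In none of the 3 windows did a WT library exceed 1.12, and few reads separated each from its value at 0 reads. The WT means of the other windows were 0.780 at *Slc38a4*, an amino acid transporter, 0.850 at *Grb10*, an adaptor that dampens insulin signalling, 0.862 at *Inpp5f*, an inositol phosphatase, 0.875 at *Nap1l5*, 0.882 at both *Kcnq1ot1* and the shared start of *Peg3* and *Usp29*, 0.899 at *Snrpn*, 0.925 at *Impact*, 1.03 at *Gnas*, 1.07 at *Zrsr1* and 1.22 at *Nnat*. *Peg10* and *Sgce*, a placental gene and the gene of a sarcoglycan that start back to back, shared the only window above the median, with 2.96, 2.49 and 2.37 normalized RPKM over 202 CpGs.

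Low windows were the minority at that CpG content. Among all 20456 windows with at least 95 CpGs, 25.9% had a WT mean below the median of all windows, and among the control-region windows of that CpG content it was 13 of 14. The median WT level of all windows rose with CpG content, from 1.35 normalized RPKM at fewer than 50 CpGs to 4.70 at 200 CpGs or more. The *Gnas* window with 267 CpGs thus stood at 1.03 normalized RPKM where the median of its CpG class was 4.70. The hexamer TGCCGC was present at least 4 times in 9 of the 15 control-region windows and in 8.05% of the windows with at least 95 CpGs, with the most (12 each) at *Mest* and *Gnas*. The window at *Snrpn*, which is among the 15, has only 35 CpGs. Its promoter (chr7:60005150-60005449, −) is near the window's edge at 60005001, and the gene runs on into the next window. The *Snrpn* window may therefore miss the control region. The hexamer was also frequent in the well-marked windows of the sperm-methylated clusters described next, with 6 copies 5′ of *H19* and 9 in the window with most CpGs between *Dlk1* and *Meg3*. Input libraries, sequenced without precipitation, held between 1.28 and 2.93 in these 15 windows, in reads scaled to the library, and a median of 2.01 to 2.03 over all windows.

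**Figure D1:**
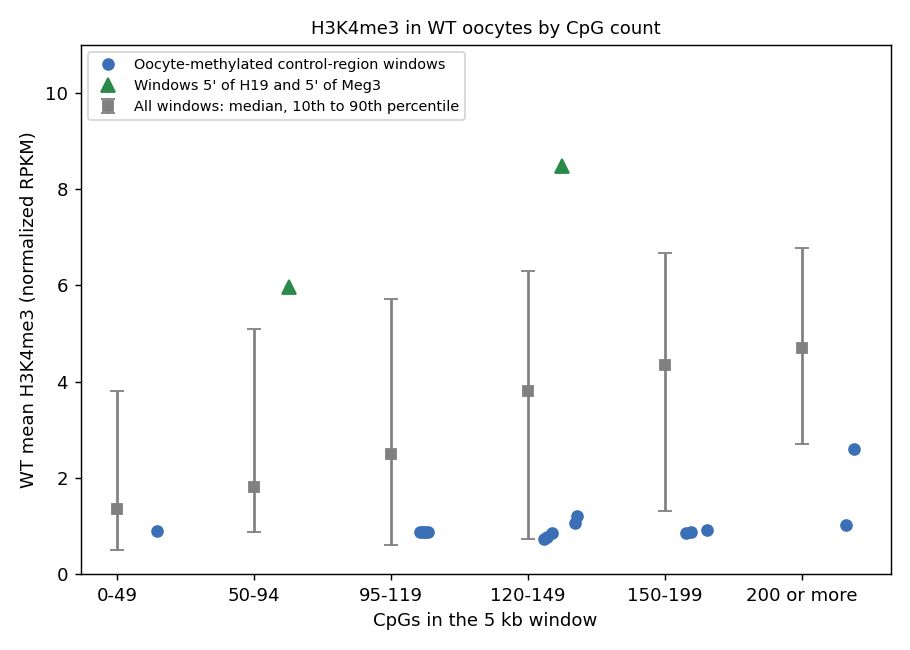
WT mean H3K4me3 (normalized RPKM) against the number of CpGs in a 5 kb window; grey squares and bars are the median and the 10th to 90th percentile of all windows, blue points the 15 oocyte-methylated control-region windows and green triangles the windows 5′ of *H19* and *Meg3*. The blue points stay at 0.737 to 2.61 while the grey medians rise from 1.35 to 4.70.

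The regions methylated in sperm were high in both genotypes. The window next to the *H19* start on its 5′ side (chr7:142580001-142585000, 81 CpGs) held 6.20, 5.61 and 6.09 normalized RPKM in WT and 6.89, 5.19 and 5.67 in cKO. *H19* encodes a non-coding RNA, and its start window held 3.27 to 4.65 normalized RPKM in WT and 3.61 to 5.42 in cKO. Between *Dlk1*, the gene of a Notch-related ligand, and the non-coding RNA *Meg3*, the window with most CpGs (chr12:109525001-109530000, 130 CpGs, centred 13.5 kb before *Meg3*) held 8.76, 7.46 and 9.23 normalized RPKM in WT and 8.44, 7.30 and 6.53 in cKO. The genotypes overlapped in each of these 3 windows, with limma adjusted p of 0.966, 0.614 and 0.438.

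The stretch between *Dlk1* and *Meg3* was marked along most of its length. Its 15 windows had WT means from 0.960 to 8.48 normalized RPKM with a median of 3.89, where the median of all windows was 1.46. In cKO the median over the same windows was 3.86. A window centred 48.5 kb before *Meg3* was the highest in cKO, at 9.66, 8.36 and 8.27 normalized RPKM, and held 8.29, 7.16 and 7.40 in WT. None of the 15 windows passed the limma test, 3 of them had an unadjusted p under 0.05, against 14.9% of all windows, and edgeR on whole reads called 1 as a gain (68.5 kb before *Meg3*, adjusted p = 0.0498), against 1.07% of the windows it tested.

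**Figure D2:**
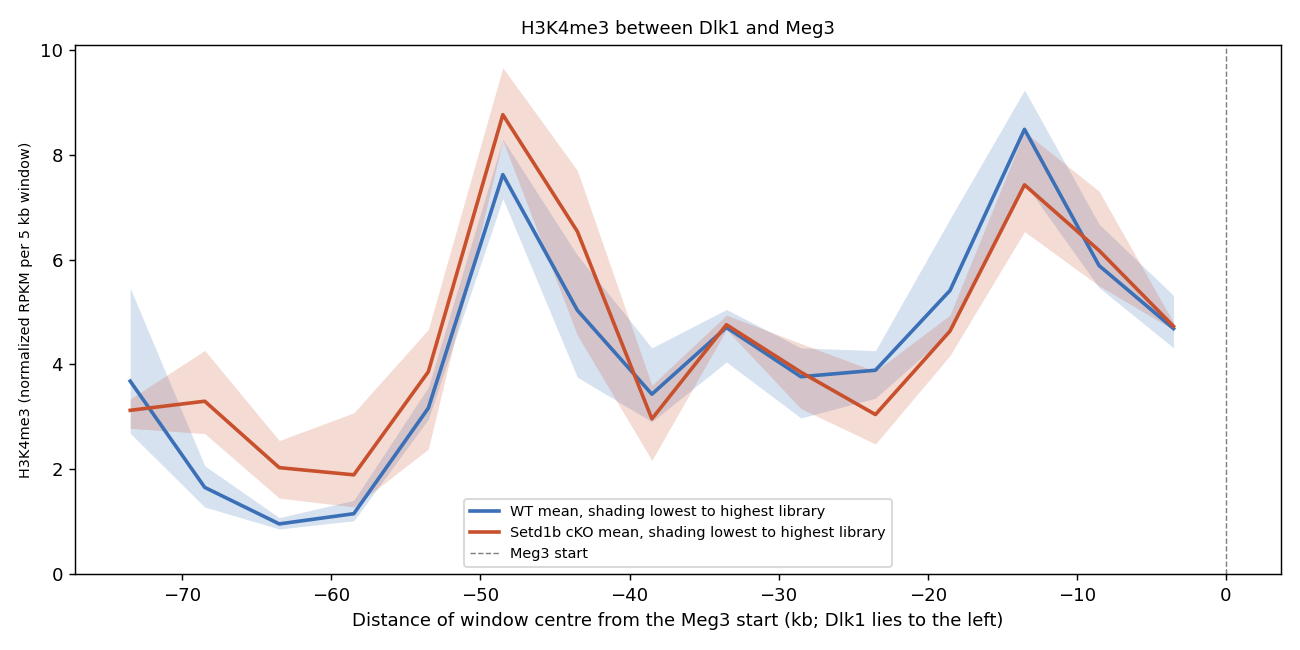
H3K4me3 (normalized RPKM) in the 15 windows between *Dlk1* and *Meg3*, by distance of the window centre from the *Meg3* start in kb; lines are means of 3 libraries and shading runs from the lowest to the highest library. Both genotypes peak 48.5 kb and 13.5 kb before *Meg3*.

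The comparison of cKO with WT asks where H3K4me3 depends on SETD1B. At the oocyte-methylated control regions no window passed the limma test, and 14 of the 15 had a higher mean in cKO. The median difference over all 15 was 0.43 normalized RPKM. Over all windows with at least 95 CpGs the median difference was 0.22 and 58.6% were higher in cKO. The groups did not overlap in 3 of the 15, each with cKO above WT. Every cKO library lay above every WT library in 19.7% of the windows with at least 95 CpGs and in 9.88% of all windows, so that 3 of 15 is near the share at that CpG content.

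*Kcnq1ot1*, the non-coding RNA whose promoter is the control region of its cluster, had the largest difference of the 15. Its window (chr7:143295001-143300000, 119 CpGs) held 2.39, 1.36 and 3.06 normalized RPKM in cKO and 1.23, 0.548 and 0.869 in WT, from 29, 18 and 78 reads against 8, 6 and 19. The cKO libraries all lay above the WT libraries. The difference was 1.39 ± 0.459 (SE) normalized RPKM with a limma adjusted p of 0.183, and edgeR on whole reads called it (log2 fold change 1.85, adjusted p = 0.00259), as did limma with an intensity trend (adjusted p = 0.0243). In all, 3 alternative settings called this window and 11 did not, with limma adjusted p up to 0.433. edgeR called 1 of the 15 windows, and 1.68% of all windows with at least 95 CpGs. *Mest* followed in its unadjusted p: 1.56, 2.02 and 1.52 normalized RPKM in cKO were all above WT, and the difference was 0.83 ± 0.341 (SE) with a limma adjusted p of 0.287.

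**Figure D3:**
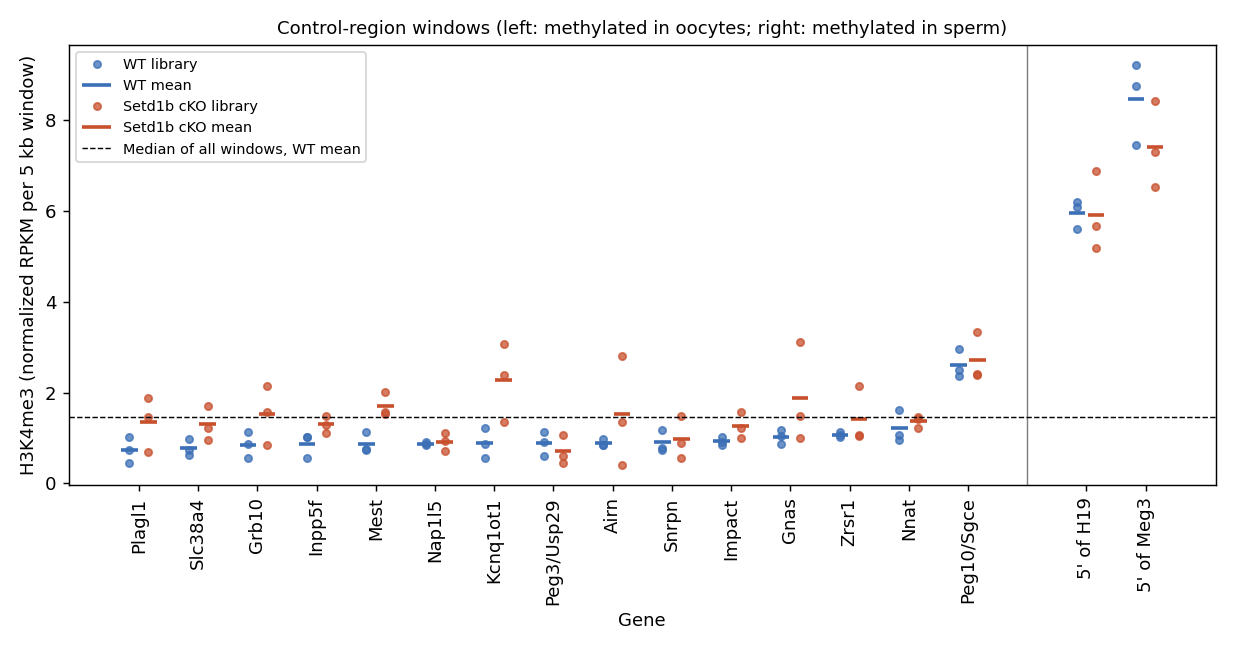
H3K4me3 (normalized RPKM) at the 15 oocyte-methylated control-region windows (left) and at the windows 5′ of *H19* and *Meg3* (right); points are libraries, bars the means of 3 libraries and the dashed line the median of all windows in WT (1.46). All oocyte-methylated windows but the one shared by *Peg10* and *Sgce* have a WT mean under the line.

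The annotated gene start is not always the promoter with the control region. *Plagl1* and *Impact*, a regulator of translation, start farther upstream in windows that were well marked: the *Plagl1* gene start held 5.68, 4.83 and 4.95 normalized RPKM in WT and 5.61, 4.53 and 6.63 in cKO (difference 0.44 ± 0.521 (SE), limma adjusted p = 0.677). At the *Impact* gene start the WT libraries held 7.04, 7.46 and 8.21 normalized RPKM and the cKO libraries 6.33, 5.59 and 7.11. The difference was −1.22 ± 0.472 (SE) normalized RPKM with a limma adjusted p of 0.253. *Mest* likewise had an upstream start window at 4.76 ± 1.78 (SD, n = 3) in WT and 4.92 ± 1.13 (SD, n = 3) in cKO, with a difference of 0.16 ± 0.828 (SE) and a limma adjusted p of 0.935. At the shared start of *Peg3* and *Usp29* the libraries held 1.06, 0.437 and 0.602 normalized RPKM in cKO and 0.915, 1.13 and 0.599 in WT (difference −0.18 ± 0.351 (SE), limma adjusted p = 0.812). The start shared by *Peg10* and *Sgce* held 3.34, 2.42 and 2.39 in cKO (difference 0.11 ± 0.388 (SE), limma adjusted p = 0.906). Groups overlapped at both.

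*Airn* held 1.34, 2.81 and 0.409 normalized RPKM in cKO, from 10, 29 and 23 reads against 3, 9 and 18 in WT, and the cKO libraries lay on either side of the WT libraries (difference 0.64 ± 0.541 (SE), limma adjusted p = 0.547). *Slc38a4* held 1.34, 1.49 and 1.76 in cKO and 0.967, 1.42 and 0.869 in WT at its gene start (difference 0.44 ± 0.342 (SE), limma adjusted p = 0.508). *Nnat*, the gene of neuronatin, held 1.45, 1.23 and 1.42 in cKO and 1.07, 1.62 and 0.959 in WT (difference 0.15 ± 0.343 (SE), limma adjusted p = 0.843). The groups overlapped at both *Slc38a4* and *Nnat*.

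The retrogenes *Nap1l5* and *Zrsr1* gave the same picture of overlapping groups. *Nap1l5* held 1.12, 0.701 and 0.940 normalized RPKM in cKO and 0.915, 0.840 and 0.869 in WT (difference 0.04 ± 0.325 (SE), limma adjusted p = 0.956). *Zrsr1* held 1.06, 2.15 and 1.04 in cKO and 1.07, 1.13 and 1.02 in WT (difference 0.34 ± 0.392 (SE), limma adjusted p = 0.664). None of the 12 distinct gene-start windows of the 14 genes with the control region at the promoter passed the test. Their limma adjusted p ran from 0.183 at *Kcnq1ot1* to 0.980 at *Snrpn*, a spliceosome gene whose gene-start window held 1.06, 0.833 and 1.18 normalized RPKM in cKO and 1.07, 1.23 and 0.839 in WT (difference −0.02 ± 0.33 (SE)).

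Along *Kcnq1*, the gene of a potassium channel subunit, the called windows lay between the point where *Kcnq1ot1* starts and the *Kcnq1* end. *Kcnq1ot1* is read from the other strand, toward the *Kcnq1* start, so the called windows lie 5′ of its start and outside its transcript. Of the 65 windows named for *Kcnq1*, 2 passed the limma test, both as gains. These were the only windows called among all 343 of the imprinted genes (2 of 343), where gains made up 0.563% of all 544879 windows and losses 0.454%. Of the 225692 windows named for any gene, 2012 were gains, and the share of calls among the windows of the imprinted genes was near these backgrounds. The first (chr7:143375001-143380000, 81.0 kb 5′ of the *Kcnq1ot1* start) held 3.28, 3.74 and 3.79 normalized RPKM in cKO and 1.07, 1.23 and 1.47 in WT, from 45, 36 and 93 reads against 5, 13 and 39. The difference was 2.34 ± 0.339 (SE) with a limma adjusted p of 0.0228. In the second (chr7:143405001-143410000, 111 kb 5′ of that start) the cKO libraries held 5.22, 4.40 and 3.59 normalized RPKM and the WT libraries 1.60, 1.91 and 1.17, from 80, 41 and 89 reads against 15, 20 and 29, with a difference of 2.85 ± 0.453 (SE) and a limma adjusted p of 0.0285. In both windows every cKO library exceeded every WT library by more than the spread within either group. Both calls were lost without cKO replicate 4 or any one of the WT libraries, and on log2(value + 1) and after quantile normalization, with adjusted p up to 0.106 for the first and 0.114 for the second. The second was also lost without cKO replicate 3 (adjusted p = 0.0628) and after division by the median (adjusted p = 0.0563). With replicate 1 of both genotypes left out, the differences were 2.41 and 2.46 normalized RPKM, with limma adjusted p of 0.104 and 0.112. No window of the genome was called with those libraries left out, on log2(value + 1), or without cKO replicate 4 or WT replicate 2 or 4, and 1 was called after quantile normalization and 1 without WT replicate 1.

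The 27 windows from the *Kcnq1ot1* start to the end of *Kcnq1* are described here as a stretch that was set after the called windows were known and that contains them, so that its values are a description with no test. Averaged over the stretch, the 3 cKO libraries stood at 1.91, 2.44 and 2.17 normalized RPKM and the 3 WT libraries at 1.24, 1.21 and 1.13. The cKO mean was higher in 25 of these 27 windows, and in 13 every cKO library lay above every WT library, while 14 overlapped and 12 had an unadjusted p under 0.05. Of all windows named for a gene, 59.2% had a higher cKO mean and 14.8% had every cKO library above every WT library. An unadjusted p under 0.05 was found in 15.6% of them and in 14.9% of all windows. In the 38 windows from the *Kcnq1* start to the *Kcnq1ot1* start the cKO mean was higher in 25. The groups did not overlap in 6 of the 38, each with cKO above, and 3 of the 38 had an unadjusted p under 0.05. Their mean was 1.29, 1.52 and 1.50 normalized RPKM in cKO and 1.34, 1.08 and 1.12 in WT. The median difference was 0.95 over the 27 windows and 0.18 over the 38, and the difference between the stretches was not tested. edgeR on whole reads called 9 of the 27 as gains and none of the 38, where it called 1.55% of the windows named for a gene and 1.07% of all windows it tested as gains. It does not use the authors' shift and scale, so its differences in low windows can depart from the normalized ones. By the mean over the 6 libraries, the start window of *Kcnq1* was the highest of the 343 windows, at 6.61, 7.43 and 6.44 normalized RPKM in cKO and 8.34, 7.07 and 6.74 in WT, with overlapping groups.

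**Figure D4:**
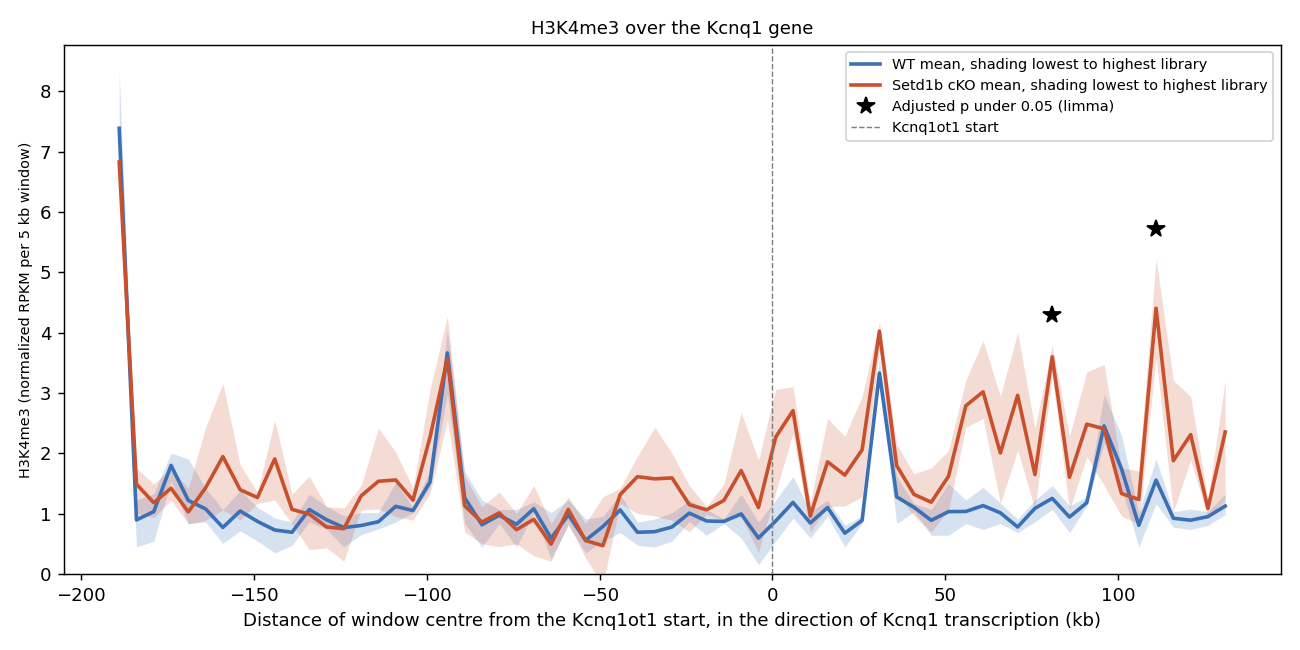
H3K4me3 (normalized RPKM) in the 65 windows named for *Kcnq1*, by distance of the window centre from the *Kcnq1ot1* start in kb; lines are means of 3 libraries, shading runs from the lowest to the highest library and stars mark the 2 windows with a limma adjusted p under 0.05. Windows to the right of the *Kcnq1ot1* start lie toward the *Kcnq1* end and 5′ of *Kcnq1ot1*. There the cKO mean is higher in 25 of 27 windows, a stretch set after the called windows were known.

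Over all 343 windows the cKO mean was higher in 241, or 70.3%, with a median difference of 0.19 normalized RPKM. Of all 225692 windows named for a gene, 59.2% were higher in cKO with a median of 0.13, and of all windows 43.8% with a median of −0.10. Without *Kcnq1*, 191 of 278 were higher, with a median of 0.16. Groups did not overlap in 61 windows with cKO above and in 10 with cKO below. Of the windows named for any gene these were 14.8% and 6.64%, and of all windows 9.88% and 9.95%. edgeR called 1 of the 278 windows outside *Kcnq1*, where it called 1.55% of the windows named for a gene as gains. This window lies within *Igf2r*, the receptor that clears IGF2 (chr17:12750001-12755000, log2 fold change 1.87, edgeR adjusted p = 0.00112). Its limma adjusted p was 0.111. The *Igf2r* windows had cKO above WT in 16 of 18, those of *Slc38a4* in 14 of 14 and those of *Grb10* in 17 of 22, whereas in *Snrpn* it was 11 of 32.

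At the highest window of each gene no member passed the limma test. That is 0 of 30, where 2.41% of the highest windows of all 24678 genes were called; 2 of the 30 had an unadjusted p under 0.05, against 24.9% of all genes. edgeR on whole reads called 0 as well, against 1.24% of the genes it tested. Every cKO library lay on one side of every WT library at 5 of the 30 (3 above, 2 below), where 23.9% of all genes did so. The median difference was 0.04 normalized RPKM over the 30 and −0.01 over all genes.

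Among the oocyte-methylated genes, the growth inhibitor *Cdkn1c*, the placental growth limiter *Phlda2*, the SOCS box gene *Asb4* and neurabin (*Ppp1r9a*), all with a distant control region, were marked most after *Kcnq1* and *Airn*. *Cdkn1c* held 6.83, 5.72 and 6.82 normalized RPKM in cKO and 6.15, 5.61 and 5.82 in WT. *Asb4* held 6.22, 5.45 and 6.87 in cKO and 6.51, 8.14 and 6.47 in WT, and the groups overlapped at both genes. The means over the 6 libraries were 6.85 at *Airn*, 6.61 at *Asb4*, 6.27 at *Ppp1r9a*, 6.16 at *Cdkn1c*, 5.87 at *Phlda2*, 4.91 at *Sgce*, 4.90 at *Inpp5f*, 4.84 at *Mest*, 4.61 at *Zim1*, 4.37 at *Snrpn*, 4.30 at the MAGE family gene *Magel2* and 4.12 at *Ascl2*, a factor needed in the placenta. Those of *Grb10*, *Igf2r*, the G protein gene *Gnas*, *Slc38a4*, the RING finger gene *Mkrn3*, the MAGE family gene *Ndn* and *Plagl1* were 3.66, 3.13, 3.09, 2.59, 2.38, 2.22 and 1.70. By the windows that bear their own names, the least marked were *Impact*, the zinc finger gene *Peg3*, *Peg10* and the protease gene *Usp29*, at 1.21, 1.20, 1.09 and 0.900, where 12.4%, 12.2%, 10.6% and 8.07% of all genes were lower. The start windows of *Impact* and *Peg10*, which bear no name and the name *Sgce*, were higher, as described above. *Tssc4*, a spliceosome-associated gene without a window of its own name, held 5.44, 3.74 and 5.04 normalized RPKM in cKO and 4.00, 5.90 and 3.90 in WT at its gene start, with overlapping groups. The highest windows of *Airn*, *Sgce*, *Snrpn*, *Ppp1r9a*, *Dio3*, *Slc38a4*, *Mkrn3*, *Plagl1*, *Impact*, *Peg3* and *Peg10* hold no annotated start of the gene.

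Genes next to each other in the order of the 30 means overlapped in the values of their libraries. *Slc38a4* had the smallest unadjusted p of the 30, with 3.23, 3.08 and 3.45 normalized RPKM in cKO and 1.75, 2.10 and 1.95 in WT. No library of one genotype reached the other there, and the limma adjusted p was 0.0903 for a difference of 1.32 ± 0.329 (SE). *Zim1*, a zinc finger gene of the *Peg3* cluster, went the other way: 2.95, 4.66 and 4.36 normalized RPKM in cKO against 6.30, 4.25 and 5.16 in WT, with overlapping groups and a limma adjusted p of 0.365.

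Among the sperm-methylated genes, *Meg3* held 6.66, 4.00 and 4.60 normalized RPKM in cKO and 5.31, 7.75 and 6.12 in WT. *Dlk1* held 4.11, 3.21 and 4.94 in cKO and 2.69, 2.69 and 3.30 in WT, and the groups overlapped (difference 1.20 ± 0.463 (SE), limma adjusted p = 0.256). At the growth factor gene *Igf2* the cKO libraries held 2.73, 2.42 and 2.87 normalized RPKM, each below the WT libraries at 3.32, 3.47 and 3.09, with a limma adjusted p of 0.432. The means over the 6 libraries were 5.74 at *Meg3*, 4.86 at *Dio3*, the deiodinase that inactivates thyroid hormone, 4.27 at *H19*, 3.49 at *Dlk1*, 2.98 at *Igf2* and 1.22 at *Rtl1*, a retrotransposon-derived gene.

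The classes were close at their highest windows. The median level over the 24 oocyte-methylated genes was 4.81, 3.21 and 3.88 normalized RPKM in cKO and 3.64, 4.29 and 4.05 in WT. Over the 6 sperm-methylated genes it was 4.33, 3.41 and 4.77 in cKO and 3.71, 3.37 and 3.55 in WT. The libraries of the genotypes overlapped in both classes. The median difference was 0.04 in the oocyte-methylated class and 0.24 in the sperm-methylated class, less than the spread between libraries of one genotype (SD of the class median 0.614 and 0.508). The 6 sperm-methylated genes belong to 2 clusters and are not 6 independent regions.

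**Figure D5:**
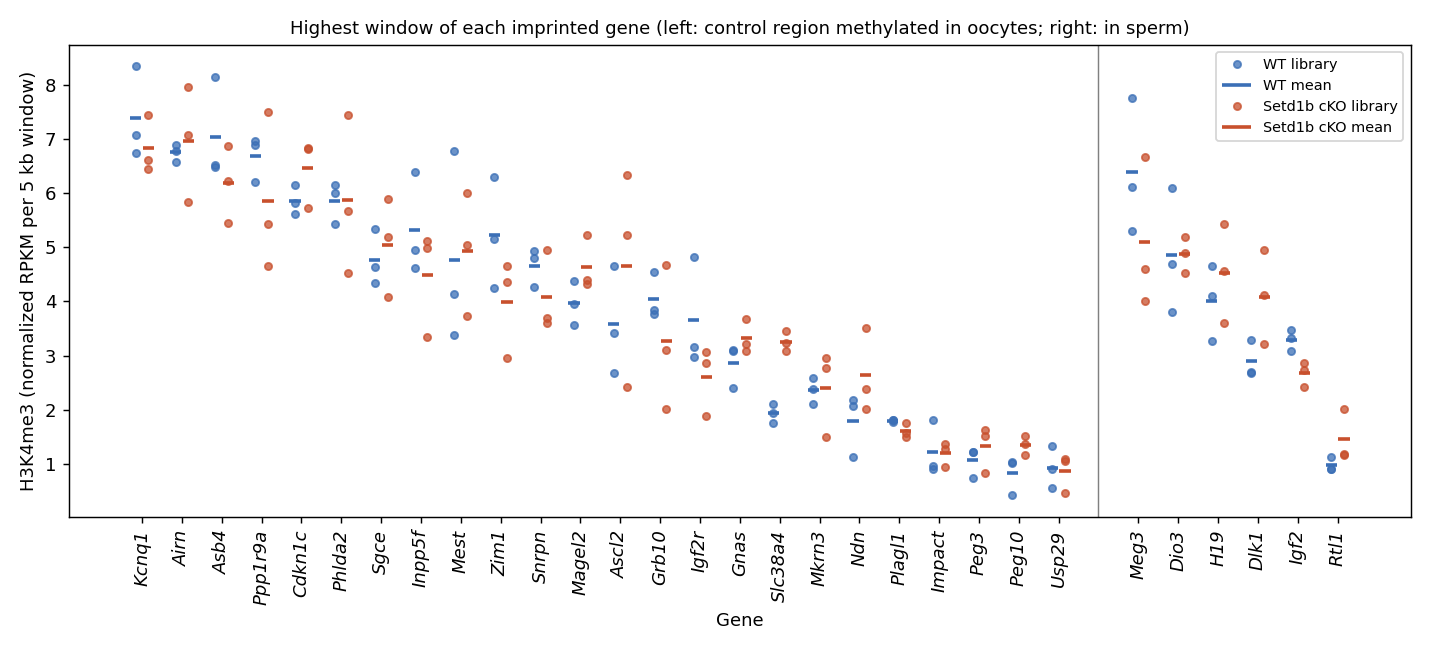
H3K4me3 (normalized RPKM) at the highest window of each of the 30 genes, with oocyte-methylated genes left of the line and sperm-methylated genes right of it; points are libraries and bars the means of 3 libraries. Levels run from above 7 at *Kcnq1* to below 1 at *Usp29*, and the genotypes overlap at 25 of the 30 genes.

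Genes that set or keep imprints were looked at in the same way. Of 21 listed, 20 had a window and 1 was called, *Nlrp2*, a maternal effect gene, which held 3.67, 4.66 and 4.22 normalized RPKM in cKO and 8.24, 7.65 and 7.64 in WT (difference −3.66 ± 0.384 (SE), limma adjusted p = 0.0130). edgeR on whole reads called none of the 20. Their median difference was −0.27. This 1 of 20, and the 1 of 32 that follows, stand against 2.41% of all genes. An unadjusted p under 0.05 was found for 8 of the 20 and 12 of the 32, against 24.9% of all genes. Of 40 further imprinted genes, 32 had a window and 1 was called, *Th*, the gene of tyrosine hydroxylase, at 4.67, 4.40 and 4.70 in cKO and 6.15, 6.19 and 6.68 in WT (limma adjusted p = 0.0462). edgeR on whole reads called none of the 32, and their median difference was 0.36, with 21 of them higher in cKO.

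The 10 oocyte markers had WT means of 3.57 to 7.79 normalized RPKM at their highest windows, with 0 of 10 called by limma or edgeR (7 at an unadjusted p under 0.05, where 24.9% of all genes were) and a median difference of −1.32. Of the 10 markers 3 were higher in cKO, among them *Gdf9* (difference 1.46), which is 1 of the 7, and 6 had every cKO library below every WT library, as had 10.7% of all genes. Of 10 granulosa cell markers, which had WT means of 0.930 to 5.93, 8 were higher in cKO, the median difference over the 10 was 0.78, and *Foxl2* was called as a gain, 1 of 10 against 2.41% of all genes. It held 6.39, 8.36 and 6.44 in cKO and 4.53, 3.86 and 4.26 in WT (limma adjusted p = 0.0415). edgeR on whole reads called none of these 10 markers, and 5 had an unadjusted limma p under 0.05. H3K4me3 can mark genes that are not expressed, and the part of other cells in the values of the imprinted genes was not tested.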

How the data were processed

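H3K4me3 was measured in 3 *Setd1b* cKO and 3 WT pools of d21 GV oocytes, with 2 input libraries per genotype. The authors trimmed reads with Trim Galore 0.4.2, mapped them with Bowtie2 2.2.9 to GRCm38 (versions from the submitters' processing notes) and quantified 5 kb windows. The deposited H3K4me3 values are a score (enrichment-normalized RPKM, linear), and the deposited input values are a signal, reads per window scaled to the library. The paper's methods describe libraries excluded for poor enrichment, which are not analysed here. Genotypes and replicate numbers came from the labels, and 0 value columns were left without a sample. The labels call the pools biological replicates.

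Values rose from each library's zero-read level in equal steps (100% of values within 0.1 of a step), and dividing by the step gave whole reads per window. Such reads may include duplicates, and intervals on them cover counting error only. All 544879 windows were tested with limma 3.58.1 (R 4.3.3; moderated linear model, two-sided, Benjamini-Hochberg adjusted p under 0.05 over all windows). The alternative on whole reads was edgeR 4.0.16 (TMM, quasi-likelihood, at least 10 reads over the 6 libraries). Both were also run on simulated data, with large changes placed in well-marked windows only, so those runs do not cover the low windows described here. Adjusted p in the text cover all windows.

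The members and lists were chosen with earlier results of these data known. Every member is named with its highest window, and full statistics are given for members with a called window and for start windows of genes with the control region at the promoter. *Slc38a4*, *Dlk1*, *Zim1*, *Igf2* and the *Igf2r* window were added after their values were seen. Class, role and control region of each gene are background knowledge, and positions of control regions were not read from a file. Gene starts came from GENCODE M21, and CpGs and hexamers from the GRCm38 sequence. Other alternatives were a replicate block, leaving out each library, other windows for a gene, a minimum mean of 1, quantile normalization, log2(value + 1), an intensity trend and division by the median. Windows with most CpGs among transcript starts, and leaving out replicate 1 of both genotypes, were added after seeing the data. Other tools were Python 3.11.15, numpy 2.4.6, pandas 2.3.3 and matplotlib 3.10.9. DNA methylation and gene expression were not analysed here.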

Additional observations from a re-analysis of the deposited data

How the results depend on the processing

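The count of 0 called highest windows was kept under every setting run except the replicate block, which called 5 (4 gains). Among the 5 were *Slc38a4* (limma adjusted p = 0.0342), *Dlk1* (0.0271) and *Zim1* (0.000912, a loss). The share of the highest windows of all genes called with that block is not given here. The 2 called windows among all 343 became 0 on log2(value + 1) and after quantile normalization, 1 after division by the median, 11 with an intensity trend, 10 with edgeR on whole reads, and 0 to 10 when 1 library was left out (10 without cKO replicate 1, 1 without cKO replicate 3 and 0 without cKO replicate 4 or any WT library). With the replicate block it was 17 (13 gains). With replicate 1 of both genotypes left out, an alternative chosen after seeing the data, it was 0. Over all windows, log2(value + 1), quantile normalization and leaving out both replicates 1, cKO replicate 4 or a WT library also left 0 or 1 calls. Over all 544879 windows the intensity trend called 8540 gains and 10952 losses. The fit without cKO replicate 1 called 9330 gains and 8649 losses, and edgeR 5369 and 6145 of the 503726 windows it tested. The counts among the 343 windows thus rose where the calls over all windows rose. After quantile normalization the differences in the 2 *Kcnq1* windows were 2.38 and 2.76. Of the 12 gene-start windows, 0 were called, against 1 with an intensity trend, 1 with edgeR and 2 with the replicate block (*Kcnq1ot1*, adjusted p = 0.0122, and *Mest*, difference 1.76, adjusted p = 0.0074); the windows with most CpGs gave 0, and 1 with edgeR.

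The replicate block pairs libraries only through numbers 1 and 4, whose deviations correlated at 0.319 and 0.019. Both replicates 1 also had a higher ratio of reads at the 99th to the 40th percentile and a higher value at 0 reads (0.785 and 0.810) than the other libraries. No label says that a number marks a shared batch, and the block raised the calls over all windows from 3066 gains and 2473 losses to 13678 and 19755.

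The median difference of the oocyte-methylated class was −0.003 on log2(value + 1) and −0.06 (log2) with edgeR, and −0.143 to 0.117 with 1 library left out. That of the sperm-methylated class was 0.079, −0.092 and −0.043 to 0.352. Of the gene-start windows, 8 changed sign in at least 1 setting. At *Peg3* the difference became 0.101 after quantile normalization, 0.075 with the replicate block and 0.581 (log2) with edgeR, and at *Snrpn* 0.026, 0.166 and 0.443. *Plagl1* became −0.113 (log2) with edgeR and *Airn* −0.029 with the replicate block. With 1 library left out, the differences ran from −0.204 to 0.282 at *Peg10*, −0.531 to 1.169 at *Mest*, −0.054 to 0.154 at *Nap1l5*, −0.125 to 0.075 at *Snrpn*, −0.08 to 0.97 at *Plagl1*, −0.025 to 0.534 at *Zrsr1* and −0.008 to 1.194 at *Airn*. With both replicates 1 left out, *Peg10* became −0.029, *Mest* −1.067 and *Nap1l5* −0.034. Control-region windows held as few as 1 read, in cKO and WT replicate 1 at *Grb10*, so that counting error is large there.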
